A study of Mus musculus with 10 samples.

Results

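The simple epithelial keratins are the cytoskeletal keratins of single-layered epithelia, and 6 of them, Krt7, Krt8, Krt18, Krt19, Krt20 and Krt23, are described here in pancreatic islets. They were chosen by name, and each was represented by the probe set annotated to that symbol alone with the highest mean over the arrays. All 6 were measured, each by 1 such probe set, among 19938 genes tested. Messenger RNA was measured on whole-transcript microarrays in pancreatic islets, the clusters of hormone-secreting cells, from male mice of 2 inbred strains, NZO/Hl (called NZO, 5 arrays), which is obese and prone to diabetes, and C3HeB/FeJ (called C3H, 5 arrays). Mice of both strains were 6 weeks old, had eaten a diet with 45% of energy from fat since they were weaned, and carried no transgene or treatment named in the labels. Islets had recovered overnight in culture before their RNA was extracted. Titles mostly list 2 animals per array, but only 1 for NZO replicate 4 and a span of numbers for NZO replicate 5. Whether islets of several animals were pooled is not stated.

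Keratins assemble as pairs of a type I and a type II chain into intermediate filaments that give epithelial cells mechanical strength and that are raised in many epithelia after injury. Krt7 and Krt8 encode type II chains, and Krt18, Krt19, Krt20 and Krt23 type I chains. Krt8 and Krt18 pair in most simple epithelia and are the main filament pair of mouse beta cells and acinar cells, while Krt7 and Krt19 are used as markers of pancreatic duct cells. Krt20 is known from intestinal and bladder epithelium, and Krt23 is known as a stress-induced keratin of mouse and human liver ducts. In GRCm38.p6 the genes Krt7, Krt8 and Krt18 lie on chromosome 15, and Krt19, Krt20 and Krt23 in the type I keratin cluster of chromosome 11.

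The promoters of 3 members are shown because Krt7 had nearly equal means in the strains in the comparison below, while Krt18 and Krt20 were higher in NZO islets. They cover 250 bases before and 50 after the annotated start and come from RefSeq, build GRCm38.p6, where 5 of the 6 members matched an entry, all but Krt19. Krt7 is at chr15:101412153-101412452 on the plus strand, Krt18 at chr15:102027966-102028265 on the plus strand, and Krt20 at chr11:99438104-99438403 on the minus strand. Each is written 5′ to 3′ along its gene, and capitals mark matches to the TATA box TATAAA, the GC box GGGCGG or the AP-1 motif TGANTCA on either strand.
Krt7: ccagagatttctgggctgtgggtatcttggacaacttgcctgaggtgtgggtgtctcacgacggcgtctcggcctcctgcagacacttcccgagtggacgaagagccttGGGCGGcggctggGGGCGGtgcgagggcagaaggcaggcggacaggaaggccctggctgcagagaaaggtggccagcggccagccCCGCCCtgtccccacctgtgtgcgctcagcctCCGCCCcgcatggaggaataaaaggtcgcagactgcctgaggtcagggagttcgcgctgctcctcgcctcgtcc
Krt18: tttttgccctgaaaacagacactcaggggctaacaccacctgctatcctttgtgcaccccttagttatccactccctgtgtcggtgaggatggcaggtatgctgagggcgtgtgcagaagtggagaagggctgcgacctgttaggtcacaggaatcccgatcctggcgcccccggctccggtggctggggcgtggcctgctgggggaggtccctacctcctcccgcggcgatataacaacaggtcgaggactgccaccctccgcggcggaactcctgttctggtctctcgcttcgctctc
Krt20: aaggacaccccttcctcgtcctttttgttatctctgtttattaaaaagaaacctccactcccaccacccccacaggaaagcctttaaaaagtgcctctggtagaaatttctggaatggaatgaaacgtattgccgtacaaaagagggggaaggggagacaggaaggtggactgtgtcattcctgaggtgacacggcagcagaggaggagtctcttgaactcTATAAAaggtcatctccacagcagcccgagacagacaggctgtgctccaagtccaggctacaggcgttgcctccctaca

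The Krt7 promoter held 4 matches to GGGCGG and was rich in G and C (66.3%), where the median over 32851 promoters of this length was 52.7%. GGGCGG was found in 35.7% of all these promoters and in none of the other 4 keratin promoters. The Krt20 promoter held TATAAA with its first base at position -29 from the start, and Krt8 held overlapping matches at -3 and -1, a motif present in 13.6% of all promoters. TGANTCA, present in 7.81% of promoters, was in none of the 5. The Krt18 and Krt23 windows held none of the 3 motifs. These matches are letters in a window and were not tested for binding.

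Between the strains, 4 of the 6 keratins were higher in NZO islets and none was lower, where 5.47% of all genes tested were higher, 4.61% were lower and 10.1% differed in either direction (limma, Benjamini-Hochberg adjusted p below 0.05 over all genes). Krt19 was 2.93-fold higher and Krt18 1.65-fold higher, and Krt20 and Krt23 were higher from C3H values not shown to be above background. Krt7 had nearly equal means in both strains. In 3 of the 6, every NZO array lay above every C3H array, as in 4.96% of all genes. The median difference of the 6 was 0.77 log2 units, where that of all genes was -0.02, and it was 0.50 without NZO replicates 4 and 5, 0.05 with the duct score and -0.15 with the acinar score described below. In RNA of whole islets, fewer cells of a type and less RNA per cell cannot be told apart. The p-values rest on the spread between these arrays, which the labels do not say came from independent isolations.

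**Figure D1:**
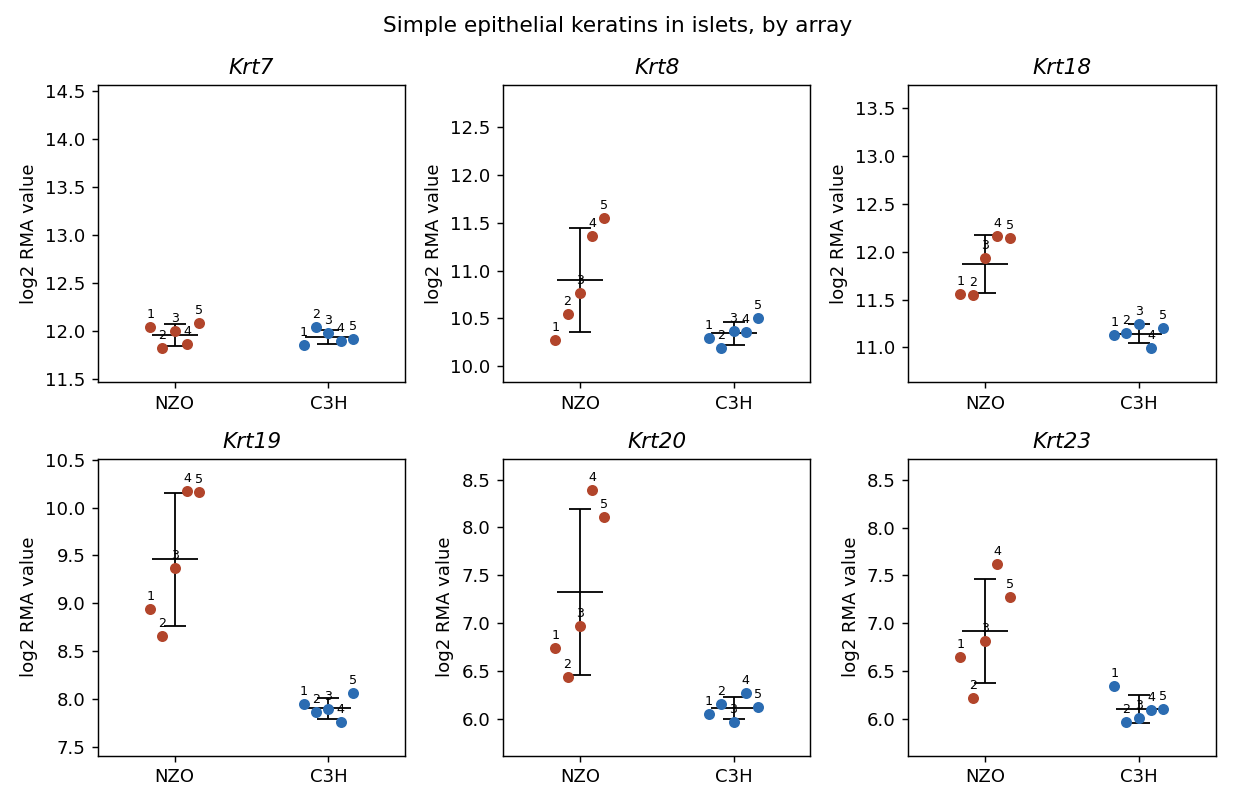
Log2 RMA value of each simple epithelial keratin (1 panel per gene, vertical axis in log2 units with the same span) on each NZO array (red, left) and C3H array (blue, right). Points are arrays labelled by replicate number, and lines are the mean and SD of 5 arrays. The NZO arrays of Krt18, Krt19 and Krt20 lie above all C3H arrays, with replicates 4 and 5 highest, and those of Krt7 overlap with C3H.

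Among the type I chains, Krt19 had 8.94, 8.66, 9.37, 10.17 and 10.16 log2 units on NZO replicates 1 to 5, against 7.95, 7.86, 7.89, 7.76 and 8.06 on C3H replicates 1 to 5. All NZO arrays lay above all C3H arrays, and NZO replicates 4 and 5 were higher than the other 3. The means were 9.46 ± 0.69 in NZO and 7.91 ± 0.11 in C3H (SD, n = 5 each), a difference of 1.55 (SE 0.24, 95% interval 1.03 to 2.08, limma adjusted p = 0.000801).

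Krt18, the type I partner of Krt8, had 11.56, 11.55, 11.93, 12.17 and 12.14 on the NZO arrays, against 11.13, 11.15, 11.24, 10.99 and 11.20 on the C3H arrays. The strains again did not overlap. Krt18 was 1.65-fold higher in NZO (log2 difference 0.72, SE 0.12, limma adjusted p = 0.00141). This probe set was brighter than 98.3% of genes.

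Krt20 had 6.74, 6.44, 6.97, 8.39 and 8.11 on the NZO arrays, against 6.05, 6.15, 5.97, 6.27 and 6.12 on the C3H arrays. NZO replicates 4 and 5 stood well above the other NZO arrays, and all 5 lay above the highest C3H array. The difference was 1.22 (SE 0.30, limma adjusted p = 0.0175). Krt23 had 6.65, 6.22, 6.82, 7.62 and 7.28 on the NZO arrays, against 6.35, 5.97, 6.01, 6.10 and 6.11 on the C3H arrays. NZO replicate 2 lay below C3H replicate 1, so the strains overlapped. Krt23 differed by 0.81 (SE 0.20, limma adjusted p = 0.0172). The C3H means of both genes, 6.11 for Krt20 and 6.11 for Krt23, lay below the 25th percentile of genes on every array (6.17 to 6.45) so a signal over background was not shown there and folds are left out.

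Among the type II chains, Krt8 had 10.27, 10.54, 10.76, 11.36 and 11.55 on the NZO arrays, against 10.29, 10.19, 10.36, 10.36 and 10.51 on the C3H arrays. The 4 NZO arrays other than replicate 1 lay above all C3H arrays, and replicate 1 lay within the C3H range. The mean was 10.90 ± 0.54 in NZO and 10.34 ± 0.12 in C3H (SD, n = 5 each). The difference of 0.56 (SE 0.20) did not pass (limma adjusted p = 0.0964). It did without NZO replicate 1 (0.71, limma adjusted p = 0.0189) and, narrowly, without NZO replicate 2 (0.64, limma adjusted p = 0.0497), the lowest NZO arrays. It did not pass without any other single array (limma adjusted p from 0.118 without C3H replicate 4 to 0.231 without NZO replicate 5). A pseudogene copy, Krt8-ps, is listed in GRCm38.p6, so a part of the Krt8 signal from that copy cannot be told apart here.

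Krt7 had 12.03, 11.82, 11.99, 11.86 and 12.08 on the NZO arrays, against 11.85, 12.04, 11.98, 11.90 and 11.91 on the C3H arrays. The 2 ranges covered each other almost fully. The difference was 0.02 (SE 0.08, limma adjusted p = 0.932), with a 95% interval of -0.14 to 0.18, which excludes a difference as large as that of any of the 4 keratins that passed. This probe set was brighter than 99.04% of genes, a range in which RMA can compress differences.

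The SD over arrays was larger in NZO than in C3H for all 6 keratins, as for 44.6% of all genes, a description with no test. The SD over NZO arrays was 0.30 for Krt18, 0.54 for Krt8, 0.54 for Krt23, 0.69 for Krt19 and 0.87 for Krt20, and over C3H arrays it was between 0.07 and 0.15 for all 6 keratins. For Krt20 the NZO SD was larger than that of 99.8% of genes, and for Krt19 than that of 99.4%, while the median SD of all genes was 0.13 in NZO and 0.15 in C3H. Replicates 4 and 5 were the highest 2 of the NZO arrays for these 5 genes. The mean of Krt20 was 8.25 on these 2 arrays and 6.72 on the other 3, that of Krt19 10.17 and 8.99, and that of Krt8 11.45 and 10.53. Krt7, at 11.97 and 11.95, did not share this order.

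Without NZO replicates 4 and 5, 3 of the 6 keratins were higher in NZO, where 3.07% of all genes were. Krt19 was then 1.08 higher (SE 0.14, limma adjusted p = 0.000274), Krt18 0.54 higher (SE 0.11, limma adjusted p = 0.0088) and Krt20 0.60 higher (SE 0.12, limma adjusted p = 0.00749). Krt23 (0.46, SE 0.13, limma adjusted p = 0.0674) and Krt8 (0.18, SE 0.12, limma adjusted p = 0.581) did not pass. The Krt23 call also ended without NZO replicate 5 alone (0.72, limma adjusted p = 0.0509), and that of Krt20 with a trended, robust variance model (limma adjusted p = 0.0772).

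Whether 2 keratins differed from each other in their strain difference was asked for the 15 pairs, from the difference of the 2 log2 values within each array, with an exact two-sided permutation test over the 252 splits of the arrays and Benjamini-Hochberg adjustment over the pairs. The smallest p this design can give is 0.00794. In 8 pairs the strain differences were unequal. The difference of Krt19 was larger than that of Krt7 (by 1.53), Krt8 (by 0.998), Krt18 (by 0.828) and Krt23 (by 0.742), each at that smallest exact p (adjusted p = 0.0198). Values that involve Krt20 or Krt23 compare measured log2 values only, since low signal in C3H can make their own differences too small. Krt7 also differed from Krt18 by -0.70 and from Krt20 by -1.20 (both exact permutation adjusted p = 0.0198) and from Krt23 by -0.79 (exact permutation adjusted p = 0.0340), and Krt8 from Krt20 by -0.66 (exact permutation adjusted p = 0.0446). Without C3H replicate 2, 3, 4 or 5 in turn, 5 pairs passed in each case, and the calls of Krt20 against Krt7 and against Krt8 were lost without any 1 of the C3H arrays. The 5 pairs of Krt19 with Krt7, Krt8, Krt18 and Krt23 and of Krt7 with Krt18 passed whichever array was left out.

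The filament partners Krt8 and Krt18 were not shown to differ in their strain difference (-0.17, exact permutation p = 0.262, adjusted p = 0.281). The within-array difference of Krt8 minus Krt18 averaged -0.97 ± 0.28 in NZO and -0.80 ± 0.14 in C3H (SD, n = 5 each). Without NZO replicates 4 and 5 it was -0.35 and passed (exact permutation adjusted p = 0.0335). Krt19 and Krt20 did not pass as a pair either (0.34, exact permutation adjusted p = 0.0794), though they did without NZO replicate 4 (0.42, exact permutation adjusted p = 0.0170).

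The rest of the keratin family, mostly keratins of hair, epidermis and other layered epithelia, mostly did not pass the test. Of 46 other keratins measured, 3 were higher in NZO and none lower, with a median difference of -0.04. Krt80, a type II keratin, lay between 8.66 and 8.81 on the NZO arrays and between 8.13 and 8.26 on the C3H arrays. Its difference of 0.53 (SE 0.07, limma adjusted p = 0.000125) had a smaller adjusted p than any of the 6 simple epithelial keratins and was 0.49 without NZO replicates 4 and 5. Krt17, a keratin of basal and wounded epithelium, lay between 6.96 and 7.97 on the NZO arrays and between 6.56 and 6.76 on the C3H arrays (difference 0.67, SE 0.16, limma adjusted p = 0.0140), and its difference was 0.38 without NZO replicates 4 and 5 (limma adjusted p = 0.0260). Krt222 differed by 0.53 (SE 0.13, limma adjusted p = 0.0157), but did not pass without NZO replicates 4 and 5 (0.51, limma adjusted p = 0.0579). With the simple epithelial keratins counted in, 5 of the 27 keratins measured on chromosome 11 were higher, 3 of them simple epithelial keratins. On chromosome 15, 2 of the 25 were higher, 1 of them a simple epithelial keratin. Over all genes 5.47% were higher.

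**Figure D2:**
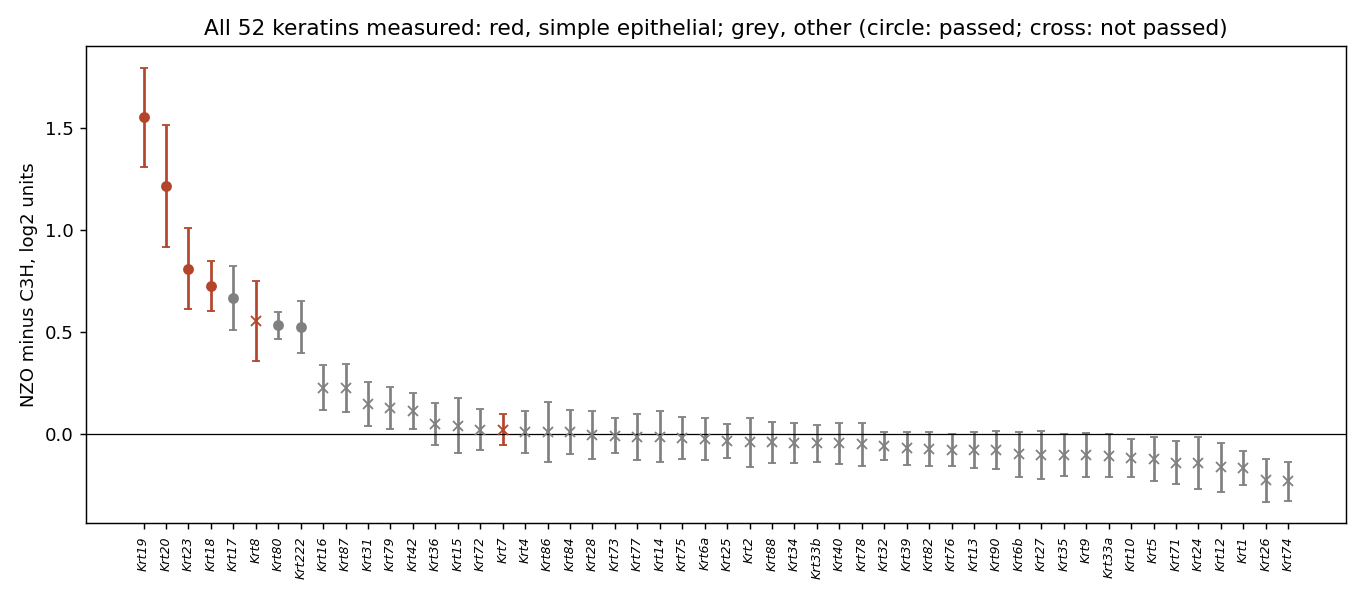
Strain difference (NZO minus C3H, log2 units, bars are the SE of limma) of the 52 keratins measured, ordered by size. Simple epithelial keratins are red and other keratins grey, circles passed and crosses did not. Krt19 and Krt20 stand highest, Krt7 lies among the many other keratins near 0, and Krt17, Krt80 and Krt222 are the 3 other keratins that passed.

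Genes of the proteins that link keratin filaments to one another and to desmosomes, the adhesive junctions on which these filaments end, mostly did not pass. Of 15 such genes measured, 1 was higher in NZO, a share near the 5.47% of all genes, with a median of 0.14. It was Pof1b, an epithelial protein of the actin and keratin cytoskeleton (0.90, SE 0.26, limma adjusted p = 0.0401), which lost its call without NZO replicates 4 and 5 (0.46, limma adjusted p = 0.268). Desmoplakin (Dsp), which ties keratins to desmosomes, differed by 0.04 (SE 0.07, limma adjusted p = 0.818), the linker plectin (Plec) by 0.18 (SE 0.13) and the plakoglobin gene Jup by 0.28 (SE 0.09, limma adjusted p = 0.0537). Of 10 other cytoplasmic intermediate filament genes, 3 were lower and none higher, where 4.61% of all genes were lower. All 3 were neuronal filaments. They were Nefm (-2.19, SE 0.16), Nefl (-0.32, SE 0.08) and Prph (-0.34, SE 0.10), of which Nefm alone passed without NZO replicates 4 and 5 (-2.23).

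Over all genes 5.47% were higher in NZO and 4.61% lower, and 3.07% were higher without NZO replicates 4 and 5. Of 24 genes of epithelial junctions and epithelial identity, 5 were higher in NZO and none lower, with a median of 0.07. Elf3, an epithelial transcription factor, was 0.58 higher (SE 0.08, limma adjusted p = 0.00032), the adhesion molecule E-cadherin (Cdh1) 0.49 (SE 0.08, limma adjusted p = 0.00171), the membrane protease Prss8 0.54 (SE 0.11, limma adjusted p = 0.00387) and the junction protein cingulin (Cgn) 0.29 (SE 0.08, limma adjusted p = 0.0309). Without NZO replicates 4 and 5, 3 of the 24 passed, and Cgn did not (0.25, limma adjusted p = 0.213). Of 16 genes of injured epithelium and keratin stress, 6 were higher and none lower, with a median of 0.52, which was 0.16 without NZO replicates 4 and 5, -0.02 with the duct score and -0.07 with the acinar score. They included the hyaluronan receptor Cd44 (1.24, SE 0.14), the secreted chaperone clusterin (Clu, 0.86, SE 0.13), the claudin Cldn4 (1.13, SE 0.18), which also stands among the duct markers, and the transglutaminase Tgm2, which crosslinks keratins in Mallory bodies of the liver (1.12, SE 0.22). The strains did not overlap in any of these 4, and without NZO replicates 4 and 5 these 4 alone of the 16 passed.

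**Figure D3:**
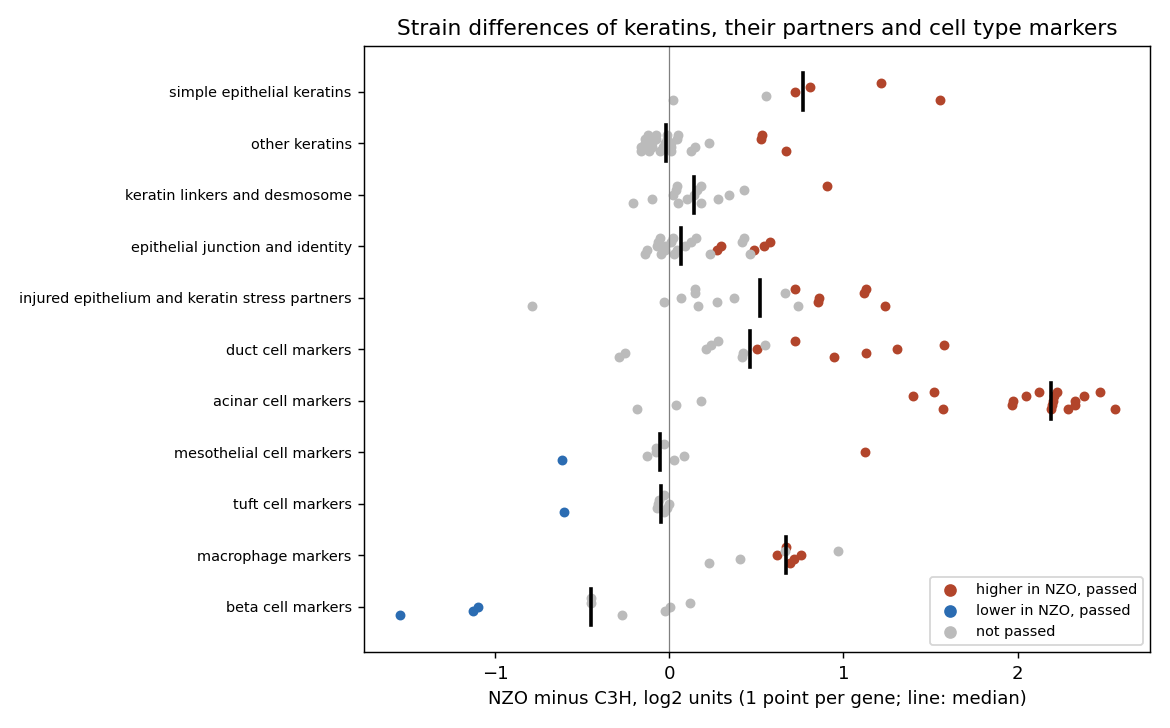
Strain difference (NZO minus C3H, log2 units) of the measured genes of the simple epithelial keratins, 4 keratin-related lists and 6 cell type marker lists, 1 point per gene, with the list median as a black line. Genes that passed are red (higher in NZO) or blue (lower), others grey. The simple epithelial keratins have a median of 0.77, the other keratins of the list -0.02, the linkers 0.14, the duct markers 0.46 and the acinar markers 2.19.

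Some markers of other epithelial cells were also higher in NZO. Over all genes 5.47% were higher and 4.61% lower, and 3.07% were higher without NZO replicates 4 and 5. Of 14 duct markers measured, none of them a keratin, 6 were higher in NZO and none lower, among them the mucin Muc1 (1.58, SE 0.28), the trefoil factor Tff2 (1.31, SE 0.18), Cldn4 and the water channel Aqp1 (0.72, SE 0.16). Bicc1 (-0.29) and Slc4a4 (-0.25) had lower means in NZO and did not pass. Without NZO replicates 4 and 5, 4 of the 14 were higher and Bicc1 was lower (-0.45, limma adjusted p = 0.0252). The duct transcription factor Sox9 (0.55, SE 0.19, limma adjusted p = 0.0894) and the chloride channel Cftr (0.42, SE 0.15, limma adjusted p = 0.110) did not pass. The mean log2 value of the 14 genes, called the duct score, was 8.19, 7.90, 8.24, 8.79 and 8.68 on NZO replicates 1 to 5 and 7.65 to 7.91 on the C3H arrays. The mean of 21 acinar genes, the acinar score, was 9.82, 9.65, 10.2, 11.3 and 11.1 on the NZO arrays and 8.27 to 9.08 on the C3H arrays. Of the 21 genes, 18 were higher in NZO. The 3 that did not pass were the acinar transcription factors Ptf1a (0.18), Rbpjl (0.04) and Bhlha15 (-0.18). Ptf1a and Rbpjl were dim, brighter than 17.5% and 31.4% of genes, while Bhlha15 was bright, brighter than 90.1%. The part of duct and acinar cells in the keratin differences was not tested.

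NZO replicate 2 had a duct score within the C3H range, and on this array Krt19 (8.66) and Krt18 (11.55) were above their highest C3H values of 8.06 and 11.24. The duct markers Muc1, Tff2, Cldn4 and Aqp1 were also above every C3H array there, and the other duct markers were not. The acinar score of NZO replicate 2 was above every C3H array. With the duct score as a covariate beside strain, 1 of the 6 keratins passed, where 1.41% of all genes were higher. That was Krt19 (0.56, SE 0.13, limma adjusted p = 0.0302), while Krt18 was 0.30 (SE 0.12, limma adjusted p = 0.265) and Krt20 and Krt23 were 0.04 and 0.06. With the acinar score as a covariate none of the 6 passed, where 0.627% of all genes were higher. Krt19 was 0.20 (SE 0.25), Krt18 0.16 (SE 0.18), and Krt8, Krt20 and Krt23 were negative. The acinar score did not overlap between the strains. At equal residual spread, the acinar and duct scores widen the SE of the strain difference by factors of 1.98 and 1.53. The fitted SE of Krt18, Krt19, Krt20 and Krt23 was 0.123, 0.244, 0.300 and 0.199 without a covariate. It was 0.117, 0.132, 0.194 and 0.153 with the duct score, and 0.176, 0.249, 0.309 and 0.191 with the acinar score. The estimates of these keratins were smaller in both fits. Their SE widened clearly only for Krt18 with the acinar score, where less precision can add to the lost call. Krt80 was 0.46 with the duct score (SE 0.10, limma adjusted p = 0.0215) and 0.40 with the acinar score (SE 0.14, limma adjusted p = 0.310).

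**Figure D4:**
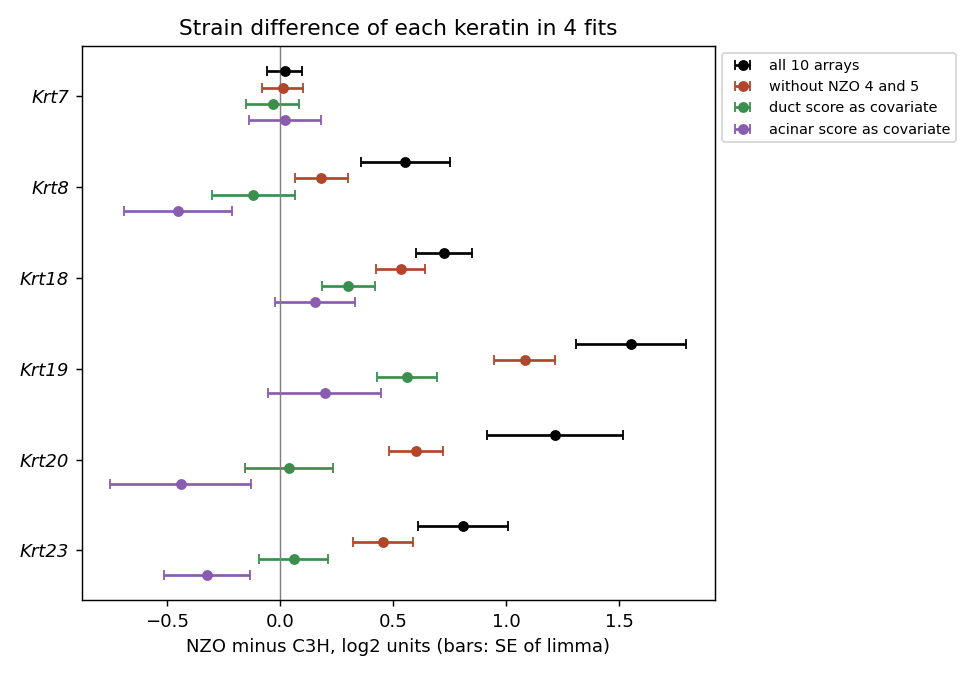
Strain difference (NZO minus C3H, log2 units, bars are the SE of limma) of each simple epithelial keratin from all 10 arrays (black), without NZO replicates 4 and 5 (red), with the duct score as a covariate (green) and with the acinar score as a covariate (purple). Krt7 stays near 0 in all 4, Krt19 and Krt18 are above 0 in all 4, and Krt8, Krt20 and Krt23 are below 0 with the acinar score.

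**Figure D5:**
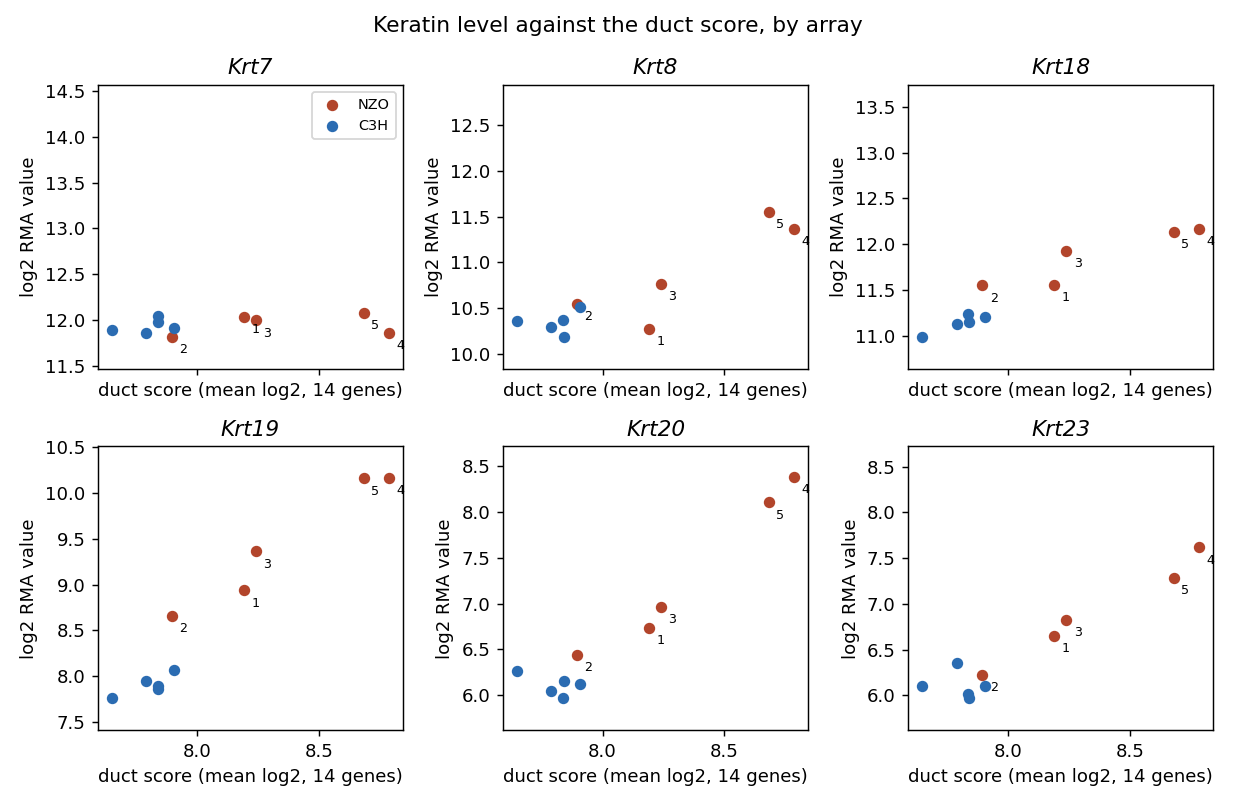
Log2 RMA value of each simple epithelial keratin (vertical axis) against the duct score of the same array (horizontal axis, mean log2 value of 14 duct markers other than keratins), with NZO arrays red and numbered by replicate and C3H arrays blue. NZO replicate 2 has a duct score of 7.90, within the C3H range, and its Krt18 and Krt19 values lie above all C3H arrays. Its values of 4 of the 14 duct markers (not drawn) do so too. NZO replicates 4 and 5 are highest on both axes for every keratin except Krt7.

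Markers of mesothelial and tuft cells, which can carry simple keratins, did not move as a list. For the counts below, 5.47% of all genes were higher and 4.61% were lower. Of 8 mesothelial markers 1 was higher and 1 lower, with scores of 6.44 to 6.54 on the NZO arrays and 6.36 to 6.64 on the C3H arrays. The defining markers Muc16, Upk3b and Wt1 differed by -0.03, 0.03 and 0.08, and mesothelin (Msln), which was higher by 1.12 (SE 0.14), was lowest on NZO replicate 4. Of 8 tuft cell markers none was higher and Dclk1 was lower (-0.61, SE 0.15). Macrophage markers, in which 5 of 9 were higher, had scores of 8.02 to 9.27 in NZO and 7.89 to 8.05 in C3H, highest on NZO replicates 4 and 5, and 2 of 9 were higher without those arrays. Of 8 stellate cell markers 1 was higher, with scores of 9.18 and 9.21 on NZO replicates 4 and 5. NZO replicates 1 to 3 had stellate scores between 7.84 and 8.54, and the C3H arrays between 8.00 and 8.29. The part of macrophages and stellate cells in the keratin differences was not tested. Of 7 endothelial markers 1 was higher. Of 9 beta cell markers 3 were lower, with scores of 10.4 to 11.3 in NZO and 11.2 to 11.4 in C3H, and of 7 other endocrine markers 2 were lower.

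The genes whose course over the 10 arrays was most like that of each keratin were found from the root mean square difference of log2 values, each centred on its own mean. For Krt19 they were the lipoprotein-associated phospholipase Pla2g7 (0.139 log2 units), the chloride channel Ano1 (0.151) and the mucin Muc1 (0.171), where the median over all genes was 0.915. For Krt18 they were the integrin Itga9 (0.0856), the nucleotide receptor P2ry6 (0.104) and the fibrinogen chain Fgb (0.112), against a median of 0.448. For Krt20 they were the complement receptor C3ar1 (0.175), the protein C receptor Procr (0.178) and Serpinb6b (0.184), against a median of 0.840, and for Krt23 the laminin chain Lamb3 (0.127), the myosin Myo5c (0.133) and the galectin Lgals9 (0.140), against a median of 0.566. Among the 6 simple epithelial keratins Krt20 was nearest to Krt19 (0.254), and Krt8 was nearest to Krt18 (0.214), with Krt23 almost as near (0.225). Other keratins were left out of this comparison. The measure follows the strain difference and the spread within NZO together.

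The arrays as a whole were alike in median level, which follows from RMA giving all arrays one distribution and does not compare the RNA put in. Their medians over all probe sets were between 6.93 and 7.05, and pairs of arrays within a strain had correlations of 0.983 to 0.997 across genes, which are not independent. C3H replicate 4 had the highest median. Its 25th percentile of genes was 6.446, where the other arrays had 6.166 to 6.285, so its dim genes read higher. Without C3H replicate 4 the count of genes that passed was 2701, where 2010 passed on all arrays.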

How the data were processed

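RNA of islets was measured on Affymetrix whole-transcript mouse arrays from 150 ng of total RNA with an integrity number above 8. The deposited log2 values were made by the authors by RMA with Expression Console, as the submitters' processing notes name it. This method removes background, gives all arrays one distribution and combines the probes of a set, so differences of dim and of the brightest sets can be compressed. There are no detection calls, and the number of arrays limits the precision. Tool versions and genome build: not given in the sources used here.

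Of 35556 probe sets, 21789 had exactly 1 gene symbol in a platform annotation, 1621 several and 12146 none. The brightest set of each symbol was kept without a filter on dim genes (19938 genes). NZO minus C3H was fitted with limma 3.58.1 (lmFit, eBayes; R 4.3.3), two-sided and without covariates. P-values were adjusted over all genes by Benjamini-Hochberg, with a threshold of 0.05, and 95% intervals are unadjusted. The code was tested on simulated data. Replicates are numbered in order of deposition. Members and lists were chosen with earlier results of these data known. Named are all 6 keratins, up to 4 passing genes per list by smallest p, defining markers, and the 3 genes most like each keratin that passed (leaving out other keratins, genes of smell and pheromone receptors, small RNAs, and names of clones or predictions). Dsp, Plec, Jup, Sox9, Cftr, Bicc1, Slc4a4, Ptf1a, Rbpjl and Bhlha15 were singled out after their values were seen. Alternatives were 2 brightness filters, probe set choice, centring, repeated quantile normalization, a trended robust variance, array weights, each array left out, NZO replicates 4 and 5 left out, and the duct or acinar score as covariate.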

Additional observations from a re-analysis of the deposited data

Results flagged for a closer look

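No keratin had an array set apart from the rest of its strain by Dixon's test on the 5 arrays. Of 106 groups tested for 53 named genes, 4 did, where chance gives about 1 in 20. Mesothelin (Msln) was 7.78 on NZO replicate 4, where the other NZO arrays lay between 8.49 and 8.61. On C3H replicate 4, Nefm was 7.94 (others 8.71 to 8.89), Fgb was 8.49 (others 8.84 to 8.98) and Aqp1 was 7.21 (others 7.04 to 7.09).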

How the results depend on the processing

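No paired analysis was possible because arrays were numbered as deposited, so equal numbers link no arrays. The 2010 genes that passed became 4125 with array weights, 1105 without NZO replicates 4 and 5, 226 given the acinar score and 633 given the duct score as covariate. With the acinar score Krt8 was -0.45, Krt18 0.16, Krt19 0.20, Krt20 -0.44 and Krt23 -0.32, none of which passed. With the duct score Krt7 was -0.032, Krt8 -0.12, Krt18 0.30, Krt20 0.039 and Krt23 0.062, none of which passed. Krt7 was -0.0069 with arrays centred on their medians. Krt8 passed with array weights (0.57). Krt20 did not pass with the trended robust variance (1.22), nor Krt23 without NZO replicates 4 and 5 (0.46). Leaving out each array in turn gave -0.0092 to 0.056 for Krt7, 0.39 to 0.71 for Krt8 and 0.64 to 0.98 for Krt23. The number of pairs that passed was then 5 to 10, and Krt18 minus Krt23 was -0.18 to 0.014, and 0.079 without NZO replicates 4 and 5. The cause was not tested. With genes below median brightness left out, Krt20 and Krt23 had no value. Low signal limits what Krt20 and Krt23 can show in C3H.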
